A study of Mus musculus with 12 samples.

Results

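The enzymes described here are 10 acyltransferases and lipins of triglyceride synthesis: *Gpam*, *Gpat4*, *Agpat2*, *Agpat3*, *Lpin1*, *Lpin2*, *Dgat1*, *Dgat2*, *Mogat1* and *Mogat2*. They were taken by gene symbol from a table of 56980 genes, each symbol matched 1 row, and all 10 were among the 13768 genes with enough counts to test. RNA of whole livers was sequenced from male ob/ob mice (strain B6.Cg-Lepob/J, genotype Lep-/-), which make no leptin, overeat and develop fatty livers. LPD livers (6 mice) came from animals given a low protein chow with 5% of energy as protein for 3 weeks, and SPD livers (6 mice) from animals given chow with 25% of energy as protein for the same time. All mice were 8 weeks old at the start and 11 weeks old at the end, ate freely and lacked leptin, so no leptin-replete liver is compared here. The comparison of LPD with SPD concerns the share of protein in the diet. With less energy as protein more comes from other nutrients, and the effects of these changes cannot be told apart here.

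Triglyceride is built in the endoplasmic reticulum and on the outer mitochondrial membrane in a chain of acylations. Glycerol-3-phosphate acyltransferases (GPAT) make lysophosphatidate, acylglycerolphosphate acyltransferases (AGPAT) turn it into phosphatidate, lipins remove the phosphate to give diacylglycerol, and diacylglycerol acyltransferases (DGAT) add the last fatty acid. A side route acylates monoacylglycerol (MGAT) to diacylglycerol and is best known from the intestine. Phosphatidate and diacylglycerol are also the branch points to membrane phospholipids.

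The depth was 19404340 to 23681408 counts in LPD libraries and 19374676 to 23710930 counts in SPD libraries. The first principal component of log2 expression, with 51.7% of the variance, separated the diets, at 13.7 to 40.05 in LPD livers and -27.4 to -20.4 in SPD livers. LPD replicates 2 and 5 lay away from the remaining LPD livers, at 40.05 and 36.8 on the first component and 15.8 and 18.8 on the second (10.3% of the variance), where the remaining 4 lay at -17.9 to -10.1 on the second. For LPD replicate 1 the title and library code name the low protein diet, but its treatment label names 25% protein. It was kept in LPD, where its mean correlation over genes was 0.989, against 0.981 with SPD livers. Among LPD livers it lay nearest to the SPD livers, with the lowest value on the first component (13.7) and the highest correlation with SPD livers. Of 8 hepatocyte markers 6 were higher in LPD livers and 2 did not pass, where 20.7% of all tested genes were called higher and 19.2% lower. The summed level of these markers was 73230 to 102300 CPM (counts scaled to the library's depth) in LPD and 76510 to 84470 CPM in SPD livers. *Lep* had 0 counts in LPD livers and at most 1 in an SPD liver. Of 8 fat cell markers, the defining *Adipoq*, *Lep*, *Retn*, *Plin1* and *Cfd* had at most 9 counts in any library; of the 3 tested, which fatty hepatocytes also express, *Fabp4* and *Cidea* were lower and *Cidec* did not pass (summed level of the list 148 to 271.5 CPM in LPD and 254 to 392 CPM in SPD livers). In whole liver, fewer cells of a type and less RNA per cell cannot be told apart.

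Across the chain, the low protein livers had less mRNA in sum for the first acylation and for the monoacylglycerol route, and more for the last acylation. In the first acylation *Gpam* fell, while *Gpat3*, which lies outside the 10 enzymes, rose. *Gpam*, *Mogat1*, *Mogat2*, *Lpin2* and *Dgat1* fell, *Lpin1*, *Dgat2* and *Agpat3* rose, and *Gpat4* and *Agpat2* did not pass the test. Thus 3 of 10 enzymes were called higher, where 20.7% of all tested genes were, and 5 of 10 lower, where 19.2% of all tested genes were (edgeR quasi-likelihood test, Benjamini-Hochberg adjusted p under 0.05 over all tested genes). The LPD and SPD livers did not overlap for 5 of 10 enzymes, against 19.9% of all tested genes. Of these, 2 lay wholly higher in LPD livers, where 10.1% of all tested genes did, and 3 wholly lower, where 9.74% did. In either direction 39.9% of all tested genes were called. The median log2 fold change (LPD over SPD) was -0.049 over the enzymes and near 0 over all tested genes. The median absolute log2 fold change was 0.37 over the enzymes and 0.22 over all tested genes. The counts of called enzymes were also 3 higher and 5 lower without LPD replicates 2 and 5.

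**Figure D1:**
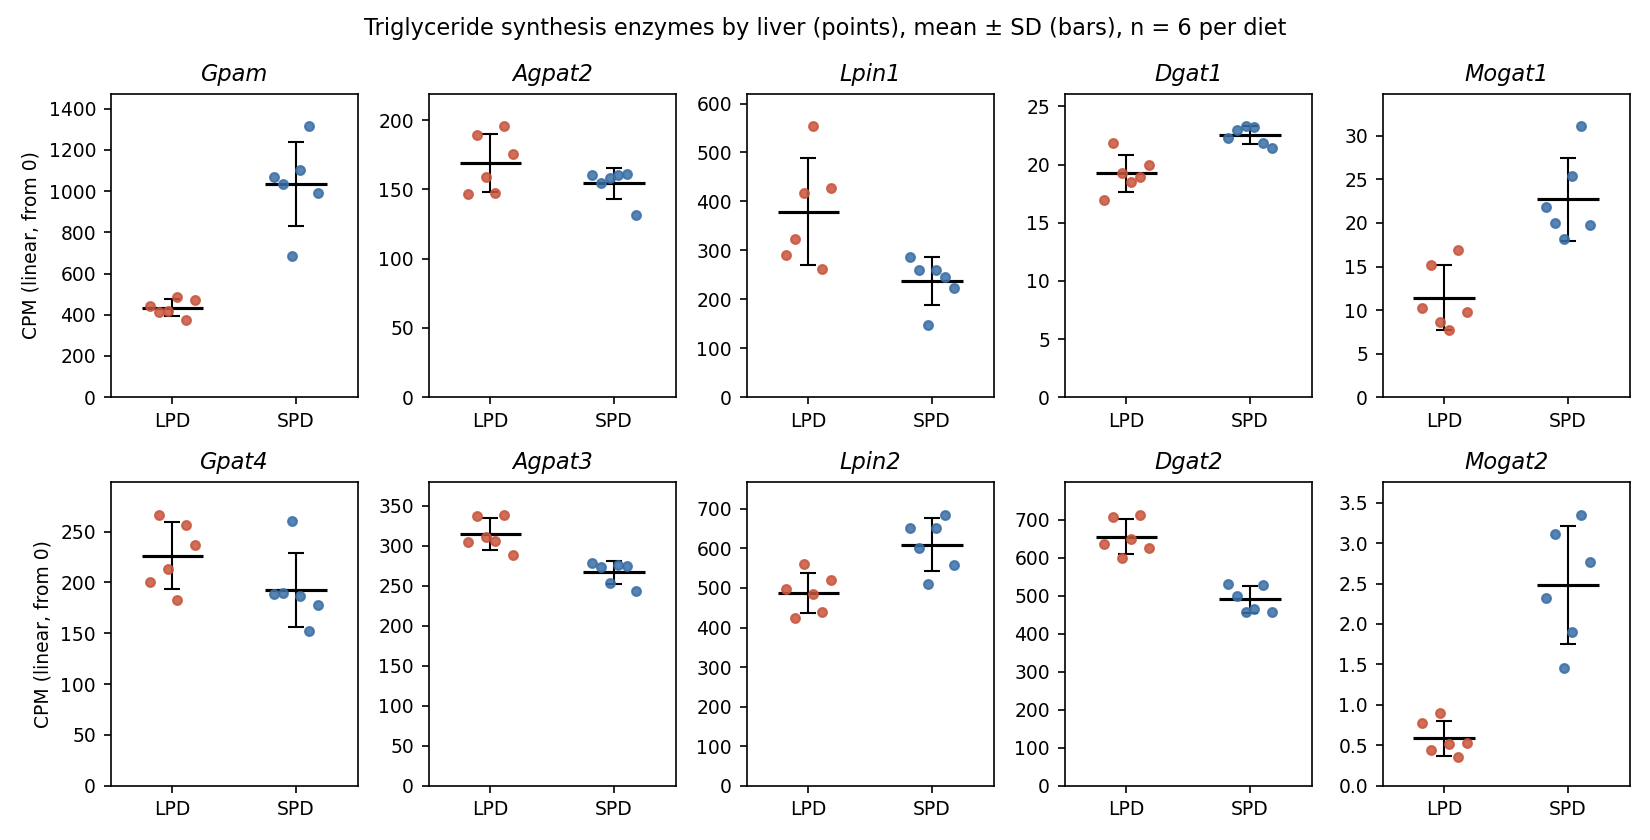
Depth-normalised level (CPM, linear axis from 0) of each enzyme in LPD livers (red, left) and SPD livers (blue, right); points are livers, bars mean ± SD, n = 6 per diet. *Gpam*, *Mogat1* and *Mogat2* lie wholly lower in LPD livers, *Dgat2* and *Agpat3* wholly higher, and the diets overlap in the other 5 panels.

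**Figure D2:**
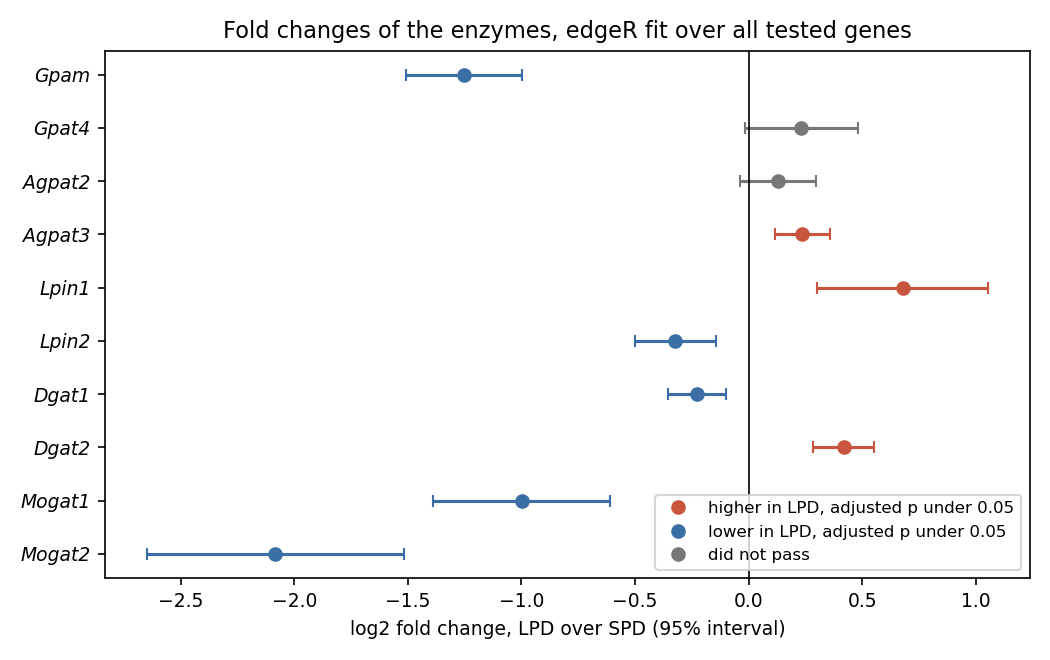
Log2 fold change (LPD over SPD) of each enzyme with its 95% interval from the fit over all tested genes. The values run from -2.08 for *Mogat2* to 0.68 for *Lpin1*, and the intervals of *Gpat4* and *Agpat2* include 0.

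The GPAT step showed the largest change among the enzymes with more than 100 CPM. *Gpam* (ENSMUSG00000024978, GRCm38 chromosome 19, 55067268 to 55127238, minus strand) encodes the mitochondrial GPAT, a known target of lipogenic control. Its level was 373 (lowest), 429.9 (median) and 488 CPM (highest) in LPD livers, against 687, 1052 and 1316 CPM in SPD livers. Every LPD liver lay below every SPD liver, and the spread was narrower in LPD (coefficient of variation 9.58%) than in SPD livers (19.7%). *Gpam* fell 2.38-fold, with 434 ± 41.6 CPM in LPD and 1034 ± 204 CPM in SPD livers (SD, n = 6), a log2 fold change of -1.25 ± 0.12 (SE, adjusted p = 1.88e-06). Of all tested genes 3.06% had a larger absolute log2 fold change. SPD replicate 3 was the lowest SPD liver at 687 CPM, where the others had 993 to 1316 CPM, so the wider SPD spread rests in part on this liver. Without SPD replicate 3 the log2 fold change was -1.345.

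*Gpat4* (ENSMUSG00000031545, chromosome 8, 23171265 to 23208346, minus strand) encodes an endoplasmic reticulum GPAT. It had 182, 225 and 267 CPM in LPD livers (lowest, median, highest), against 152, 188 and 260.4 CPM in SPD livers. The diets overlapped. SPD replicate 3, at 260.4 CPM, stood far above the other SPD livers, which reached 189 CPM, and LPD replicate 4, at 182 CPM, lay below 3 of those others. *Gpat4* did not pass (log2 fold change 0.23 ± 0.12, 95% interval -0.017 to 0.48, adjusted p = 0.129). Without SPD replicate 3 it was called higher, at 0.34 with adjusted p = 0.0131.

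The third liver GPAT gene lies outside the 10 enzymes and was counted with the related genes. *Gpat3*, which encodes another endoplasmic reticulum GPAT, rose in LPD livers, with 124 ± 19.7 CPM in LPD and 43.8 ± 4.26 CPM in SPD livers (log2 fold change 1.504 ± 0.099, adjusted p = 7.76e-08). The lowest LPD liver had 101 CPM and the highest SPD liver 49.2 CPM. *Gpat3* was called higher under all 22 alternatives of the processing, with log2 fold changes between 1.31 and 1.56. Per kilobase of the deposited gene length, *Gpam*, *Gpat3*, *Gpat4* and *Gpat2* summed to 198 ± 14.3 CPM per kb in LPD and 320.4 ± 47.5 CPM per kb in SPD livers. *Gpam* made up 57.2 ± 3.62% of that sum in LPD and 83.6 ± 4.98% in SPD livers, and *Gpat3* 21.7 ± 2.03% in LPD and 4.82 ± 0.797% in SPD livers. The diets did not overlap in either share. *Gpat3* and *Gpat4* without *Gpam* summed to 84.1 ± 9.47 CPM per kb in LPD and 50.1 ± 6.65 CPM per kb in SPD livers, with no overlap. Both sums were chosen after *Gpat3* was seen. The *Gpam* over *Gpat4* log2 ratio was 0.95 ± 0.33 in LPD and 2.42 ± 0.56 in SPD livers, a difference of -1.47 ± 0.26 (SE; exact two-sided permutation p = 0.00433, adjusted over the 5 isoenzyme ratios 0.00722). LPD values of that ratio ran from 0.54 to 1.42 and SPD values from 1.40 to 3.11, with an overlap through SPD replicate 3 alone. When only the libraries coded SP1 (SPD) and LP4 (LPD) entered, the difference was -1.19 with adjusted p = 0.0714.

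The promoter of *Gpam* is shown because this enzyme was the most changed of the abundant ones. It is the RefSeq window of 250 bases before to 50 bases after the start (build GRCm38.p6, chr19:55127189-55127488, minus strand). Capitals mark matches on either strand to an SRE-like site of sterol regulatory element binding proteins (TCACNCCAC, in 1.24% of the 32851 promoters of the table), an E-box (CACGTG, 7.15%), a CCAAT box (CCAAT, 37.4%) and an ATF4 composite site (TGATGNAA, 3.97%). The motifs do not overlap here.
*Gpam*: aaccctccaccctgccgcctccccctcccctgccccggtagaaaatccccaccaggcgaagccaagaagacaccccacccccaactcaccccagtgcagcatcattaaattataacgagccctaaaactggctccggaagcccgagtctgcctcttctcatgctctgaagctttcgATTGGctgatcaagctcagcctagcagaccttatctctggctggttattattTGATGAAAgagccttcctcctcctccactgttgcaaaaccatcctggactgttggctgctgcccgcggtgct
The window held a CCAAT box on the opposite strand and an ATF4 composite match. The window of a second *Gpam* start held none of the 4 motifs.

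At the AGPAT step the changes were small. *Agpat3* (ENSMUSG00000001211, chromosome 10, 78269178 to 78352489, minus strand) encodes an acyltransferase that makes phosphatidate from lysophosphatidate. Its lowest, median and highest levels were 288, 308 and 339 CPM in LPD livers, against 244, 275 and 279 CPM in SPD livers. All LPD livers lay above all SPD livers, by a narrow margin, and *Agpat3* rose with a log2 fold change of 0.24 ± 0.057 (adjusted p = 0.00398). *Agpat2* (ENSMUSG00000026922, chromosome 2, 26593057 to 26604417, minus strand), whose human counterpart is mutated in a congenital lipodystrophy, had 147, 167 and 196 CPM in LPD livers, against 132, 159 and 161 CPM in SPD livers. It did not pass (0.13 ± 0.079, 95% interval -0.039 to 0.299, adjusted p = 0.209). The highest *Agpat2* levels were in LPD replicates 2 and 5, with 189 and 196 CPM, and without both the log2 fold change was 0.029. The *Agpat2* over *Agpat3* log2 ratio was -0.90 ± 0.14 in LPD and -0.79 ± 0.069 in SPD livers, a difference of -0.11 ± 0.064 (exact permutation p = 0.117, adjusted 0.146). That difference passed without LPD replicate 6 (-0.15, adjusted p = 0.0487) and with only the libraries coded SP1 and LP4 (-0.21, adjusted p = 0.0476). *Egfl7* lies antisense to *Agpat2* and shares 64 exonic bases with it; its highest count was 417, and the lowest *Agpat2* count was 2668.

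The lipin pair moved in opposite directions. Lipins are phosphatidate phosphatases that also act in the nucleus on transcription. *Lpin1* (ENSMUSG00000020593, chromosome 12, 16535669 to 16610966, minus strand), the founding member, induced by fasting and glucocorticoids in liver, had 263, 369.8 and 554 CPM in LPD livers, against 148, 253 and 286 CPM in SPD livers. Most LPD livers were higher, but LPD replicate 5 (263 CPM) lay within the SPD range, and LPD replicate 4 (554 CPM) was far the highest. *Lpin1* rose 1.60-fold (95% interval 1.23 to 2.08), a log2 fold change of 0.68 ± 0.18 (adjusted p = 0.00657), with 379 ± 108 CPM in LPD and 237 ± 48.4 CPM in SPD livers. The log2 fold change was 0.54 without LPD replicate 4 and 0.57 without SPD replicate 3, and it was called in both cases.

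*Lpin2* (ENSMUSG00000024052, chromosome 17, 71182560 to 71249817, plus strand), the more abundant lipin in these livers, had 423, 491 and 560.1 CPM in LPD livers, against 510.3, 626 and 686 CPM in SPD livers. The diets overlapped, and *Lpin2* fell with a log2 fold change of -0.32 ± 0.084 (adjusted p = 0.00670). With only the libraries coded SP1 and LP4 it did not pass (-0.30, adjusted p = 0.0541). The *Lpin1* over *Lpin2* log2 ratio separated the diets in full, at -0.77 to 0.20 in LPD and -1.78 to -1.19 in SPD livers. The difference of the means was 0.98 ± 0.17 (exact two-sided permutation p = 0.00216, the smallest that 6 against 6 livers allow, adjusted 0.00541). Per kilobase, *Lpin1* made up 36.9 ± 5.76% of the pair in LPD and 22.8 ± 2.61% in SPD livers. The summed level of the pair was 187 ± 27.5 CPM per kb in LPD and 189.9 ± 23.8 CPM per kb in SPD livers, with overlapping ranges. *Lpin3*, the least abundant lipin, fell as well (5.84 ± 1.05 CPM in LPD and 8.26 ± 0.751 CPM in SPD livers, log2 fold change -0.50 ± 0.12, adjusted p = 0.00346).

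The RefSeq promoters of both lipins are shown because the pair moved apart, with the same motifs in capitals (GRCm38.p6, chr12:16610917-16611216 on the minus strand for *Lpin1* and chr17:71183282-71183581 on the plus strand for the first *Lpin2* start).
*Lpin1*: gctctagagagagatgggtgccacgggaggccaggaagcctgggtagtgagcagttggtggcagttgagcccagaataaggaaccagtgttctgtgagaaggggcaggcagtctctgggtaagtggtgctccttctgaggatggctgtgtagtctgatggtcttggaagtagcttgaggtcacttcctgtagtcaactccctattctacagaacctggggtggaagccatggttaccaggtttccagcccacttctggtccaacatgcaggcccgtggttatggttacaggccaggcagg
*Lpin2*: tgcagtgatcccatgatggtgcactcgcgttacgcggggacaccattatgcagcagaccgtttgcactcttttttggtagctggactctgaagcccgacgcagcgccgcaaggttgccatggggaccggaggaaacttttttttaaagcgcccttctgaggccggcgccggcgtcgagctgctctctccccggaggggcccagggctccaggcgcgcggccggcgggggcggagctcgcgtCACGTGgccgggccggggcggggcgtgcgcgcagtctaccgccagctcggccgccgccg
These letters held no match in the *Lpin1* window and an E-box in that of *Lpin2*, 9 bases before the start. Of 2 other *Lpin2* starts, the one farthest downstream had 3 CCAAT boxes and an ATF4 composite match, and the other none.

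At the last step *Dgat2* rose while *Dgat1* fell. *Dgat2* (ENSMUSG00000030747, chromosome 7, 99153658 to 99182719, minus strand) encodes the DGAT that mainly esterifies newly made fatty acids in liver. Its lowest, median and highest levels were 600.4, 642 and 714 CPM in LPD livers, against 457, 483 and 532 CPM in SPD livers. All LPD livers exceeded all SPD livers, and *Dgat2* rose 1.34-fold (95% interval 1.22 to 1.47), with 655 ± 46.0 CPM in LPD and 490.3 ± 34.8 CPM in SPD livers (log2 fold change 0.42 ± 0.064, adjusted p = 0.000122). Of all tested genes 24.7% had a larger absolute log2 fold change, and the median absolute value over all tested genes was 0.22. *Dgat1* (ENSMUSG00000022555, chromosome 15, 76502015 to 76511953, minus strand), of an unrelated protein family, is thought to act more on fatty acids that enter from outside. It had 17.0, 19.1 and 21.8 CPM in LPD livers, against 21.5, 22.6 and 23.3 CPM in SPD livers. LPD replicate 2, at 21.8 CPM, was the LPD liver that overlapped the SPD range, and *Dgat1* fell with a log2 fold change of -0.23 ± 0.060 (adjusted p = 0.00741). With LPD replicate 1 counted as SPD the *Dgat1* call was lost (-0.14, adjusted p = 0.187).

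The *Dgat2* over *Dgat1* log2 ratio was 5.06 ± 0.12 in LPD and 4.41 ± 0.13 in SPD livers. The lowest LPD liver had 4.92 and the highest SPD liver 4.57, and the difference was 0.64 ± 0.072 (exact permutation p = 0.00216, adjusted 0.00541). Per kilobase, *Dgat2* made up 96.6 ± 0.284% of the DGAT pair in LPD and 94.8 ± 0.431% in SPD livers. Their summed level was 299.9 ± 20.7 CPM per kb in LPD and 229 ± 15.3 CPM per kb in SPD livers, with no overlap. *Dgat2* had the highest level per kilobase of the 10 enzymes in LPD livers (289.7 ± 20.3 CPM per kb) and stood after *Gpam* (269.8 ± 53.2) at 217 ± 15.4 CPM per kb in SPD livers.

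**Figure D3:**
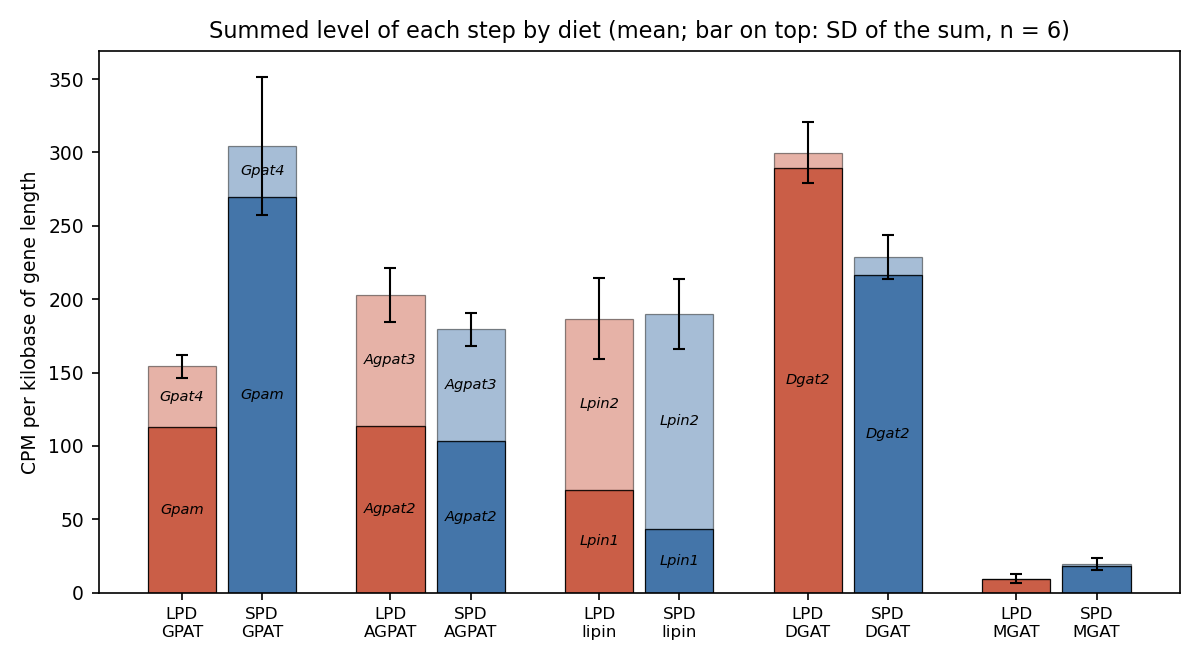
Summed level per kilobase of gene length of those of the 10 enzymes that act at each step (CPM per kb, axis from 0). LPD (red) is left of SPD (blue). Stacked bars are mean levels of the named genes and the error bar is the SD of the sum, n = 6. *Gpat3* is not part of the GPAT sum drawn. The GPAT sum of *Gpam* and *Gpat4* was 154 CPM per kb in LPD and 305 CPM per kb in SPD livers, the DGAT sum 299.9 in LPD and 229 in SPD livers, and the lipin sums differed by less than their spread.

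**Figure D4:**
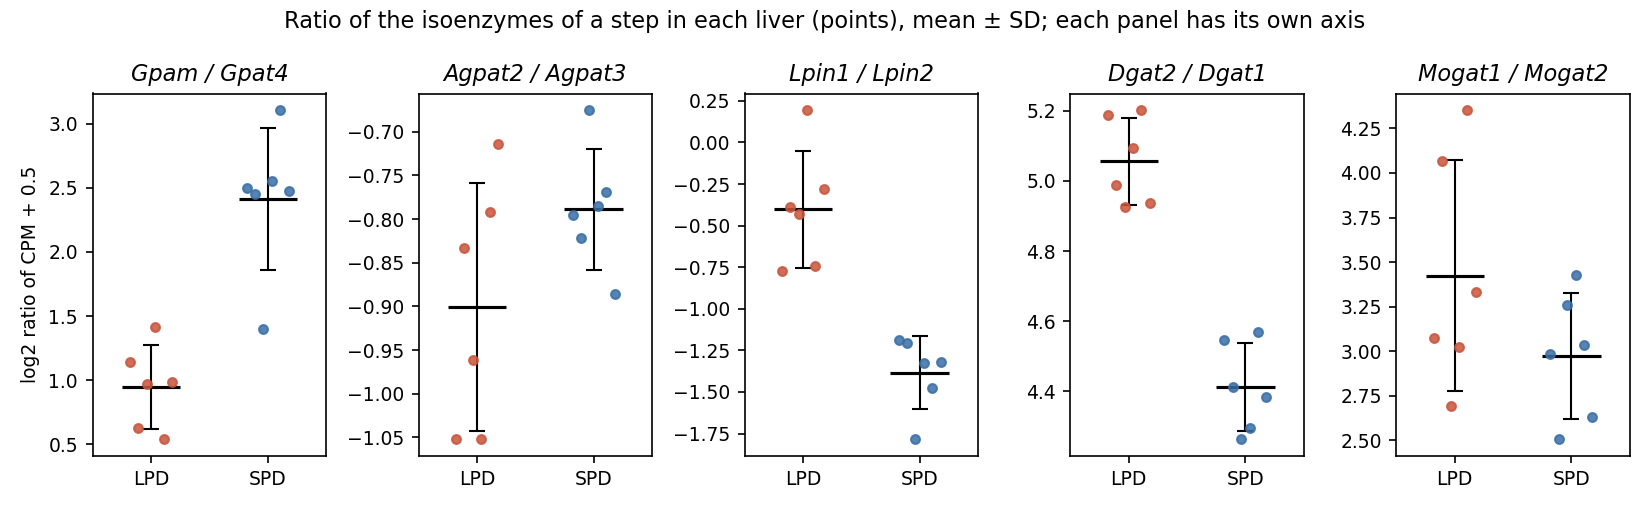
Log2 ratio of the isoenzymes of each step in every liver (CPM + 0.5, each panel with its own axis); LPD livers in red on the left, SPD livers in blue on the right, bars mean ± SD. The *Lpin1* over *Lpin2* and *Dgat2* over *Dgat1* ratios lie wholly higher in LPD livers, and the *Gpam* over *Gpat4* ratio is lower in LPD livers, with SPD replicate 3 at 1.40.

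Both genes of the monoacylglycerol route fell. *Mogat1* (ENSMUSG00000012187, chromosome 1, 78510991 to 78538173, plus strand), an MGAT known to be induced in fatty mouse livers, had 7.75, 10.03 and 16.9 CPM in LPD livers, against 18.2, 20.9 and 31.1 CPM in SPD livers. The diets did not overlap, and *Mogat1* fell, with 11.4 ± 3.73 CPM in LPD and 22.7 ± 4.80 CPM in SPD livers (log2 fold change -0.998 ± 0.18, adjusted p = 0.000555). LPD replicates 2 and 5 were the highest LPD livers, at 15.2 and 16.9 CPM, and without both the log2 fold change was -1.32. *Mogat2* (ENSMUSG00000052396, chromosome 7, 99219084 to 99238619, minus strand), the main intestinal MGAT, had 0.351, 0.518 and 0.904 CPM in LPD livers, against 1.46, 2.54 and 3.35 CPM in SPD livers. These levels rest on 7 to 18 counts per LPD library and 32 to 77 per SPD library. *Mogat2* fell 4.24-fold (95% interval of the log2 fold change -2.65 to -1.52, adjusted p = 2.56e-05), and 0.784% of all tested genes had a larger absolute log2 fold change.

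Of 6 gut markers, *Cdx2*, *Alpi*, *Lct* and *Vil1* had at most 7 counts in any library, with *Cdx2* at 0 in all. The other 2, which liver also expresses, were *Fabp2*, which was higher, and *Apoa4*, which was lower (summed level of the list 5421 to 9527 CPM in LPD and 9346 to 13080 CPM in SPD livers). The *Mogat1* over *Mogat2* log2 ratio did not pass (3.43 ± 0.65 in LPD and 2.98 ± 0.35 in SPD livers, difference 0.45 ± 0.30, exact permutation p = 0.175, adjusted 0.175). The added 0.5 CPM is near the *Mogat2* level of LPD livers (0.351 to 0.904 CPM), so it lowers the LPD ratios more than the SPD ratios. With a pseudocount of 0.1 in place of 0.5 CPM that difference was 0.90, with adjusted p = 0.046. At 0.5 CPM and without LPD replicates 2 and 5 the difference was 0.058. Per kilobase the MGAT pair summed to 9.62 ± 2.96 CPM per kb in LPD and 19.9 ± 4.11 CPM per kb in SPD livers. *BC035947* lies antisense to *Mogat1* over 200 exonic bases, with at most 24 counts in LPD and 54.1 in SPD libraries, and the lowest *Mogat1* count was 171. *Gm45012* shares 55 exonic bases with *Mogat2* on the opposite strand and had at most 3 counts. The *Mogat1* promoter (GRCm38.p6, chr1:78510810-78511109, plus strand) is shown beside that of *Gpam*, since both genes fell. Its capitals mark a CCAAT box after the start, a motif that 37.4% of the 32851 promoters of the table hold.
*Mogat1*: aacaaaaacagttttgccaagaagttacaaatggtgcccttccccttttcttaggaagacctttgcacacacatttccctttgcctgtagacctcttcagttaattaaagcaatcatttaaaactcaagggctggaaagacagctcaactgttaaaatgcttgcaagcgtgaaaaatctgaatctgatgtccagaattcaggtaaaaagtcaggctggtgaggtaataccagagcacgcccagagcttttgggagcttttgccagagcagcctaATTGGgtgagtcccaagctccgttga

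The livers within a diet differed in a pattern shared by most enzymes. LPD replicates 2 and 5 were the highest pair of LPD livers for 5 enzymes and the lowest pair for 3, together 8 of 10, against 33.1% of all tested genes. They were highest for *Gpat4*, *Agpat2*, *Agpat3*, *Dgat2* and *Mogat1*, and lowest for *Gpam*, *Lpin2* and *Mogat2*. Among SPD livers, replicate 3 was the lowest for 6 enzymes and the highest for 2, against 38.9% of all tested genes in which it lay at either end. It was lowest for *Gpam*, *Lpin1*, *Lpin2*, *Dgat2*, *Mogat1* and *Mogat2*, and highest for *Gpat4* and *Dgat1*. These livers were picked out after their values were seen. Some markers of other liver cells were called too, where 39.9% of all tested genes were called in either direction. Of 8 macrophage markers 1 was higher and 2 lower (summed level 474 to 696 CPM in LPD and 595 to 916 CPM in SPD livers). Of 8 stellate cell markers 4 were lower (350.3 to 614 CPM in LPD and 505 to 713 CPM in SPD livers). Of 8 endothelial markers 3 were lower (282 to 345 CPM in LPD and 340.2 to 388 CPM in SPD livers). Of 6 bile duct cell markers 5 were tested and 1, *Spp1*, was lower (43.2 to 117 CPM in LPD and 156 to 449 CPM in SPD livers, with *Spp1* most of the sum). Of 6 lymphocyte and neutrophil markers 4 were tested and 1 was lower (2.27 to 4.20 CPM in LPD and 3.18 to 10.4 CPM in SPD livers). Their part in the enzyme levels was not tested.

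For 4 enzymes with a called log2 fold change of at least 0.5 in size, the genes with the most similar profile over the 12 livers were sought among 11201 genes, by the root mean square (RMS) difference of log2 levels centred on the SPD mean. *Gpam* was closest to *Acacb*, which encodes the acetyl-CoA carboxylase of the mitochondrial surface (RMS difference 0.113; 128 ± 11.4 CPM in LPD and 310.5 ± 45.05 CPM in SPD livers), followed by *Pstpip2* (0.133). *Lpin1* was closest to *Cln8* (0.211; 63.9 ± 10.5 CPM in LPD and 40.7 ± 3.67 CPM in SPD livers) and *Adgrv1* (0.218). *Mogat1* was closest to the glutathione transferase gene *Gstm2* (0.26) and the steroid reductase gene *Srd5a1* (0.262). *Mogat2* was closest to *Tnfrsf23* (0.219) and to *Lss*, the lanosterol synthase of cholesterol synthesis (0.223). These distances describe the diets and the livers together.

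The genes that feed or drain the chain were read from 13 lists with 122 genes, of which 115 were tested, 31 called higher and 39 lower. The 39 include all 10 listed fatty acid synthesis genes. Over all tested genes 20.7% were called higher and 19.2% lower, and list counts near these shares are not particular to a list. The median log2 fold change of the 115 genes was -0.067. In the supply of glycerol 3-phosphate, 3 of 6 tested genes rose, 1 fell and 2 did not pass. The glycerol channel *Aqp9* (441 ± 27.2 CPM in LPD and 345 ± 26.0 CPM in SPD livers, log2 fold change 0.35 ± 0.062, adjusted p = 0.000378), the dehydrogenase *Gpd1* (0.41 ± 0.094) and glycerol kinase *Gk* (0.30 ± 0.086, chosen after its value was seen) rose. *Pgp*, which encodes a phosphatase of glycerol 3-phosphate, fell (-0.57 ± 0.081). Without LPD replicate 5 a further gene was called lower in that list (2 in all).

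Of 12 tested genes of acyl-CoA synthesis and fatty acid uptake, 3 rose, 7 fell and 2 did not pass. *Acsl5*, an acyl-CoA synthetase, fell most firmly (521 ± 21.5 CPM in LPD and 1147 ± 141 CPM in SPD livers, -1.14 ± 0.078, adjusted p = 9.39e-08), with *Dbi*, the acyl-CoA binding protein (419.6 ± 19.9 CPM in LPD and 839 ± 96.7 CPM in SPD livers). *Slc27a2*, a fatty acid transport protein with synthetase activity, rose (1312 ± 199 CPM in LPD and 897 ± 34.1 CPM in SPD livers, 0.55 ± 0.086), as did *Acbd3* (0.37 ± 0.064) and *Acsl1* (0.64 ± 0.12), the last chosen after its value was seen. All 10 listed fatty acid synthesis genes fell, with a median log2 fold change of -2.34, among them the desaturases *Scd1* (-2.72 ± 0.12) and *Scd2* (-3.51 ± 0.21).

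Among the other GPAT, AGPAT and lipin genes, *Gpat3* rose and *Lpin3* fell, as given above, and 6 of 8 did not pass; 2 were called higher without LPD replicate 5 and 2 lower without SPD replicate 2. In the branch that takes diacylglycerol to phospholipids, 3 of 10 tested genes rose, 2 fell and 5 did not pass. The methyltransferase *Pemt*, which makes phosphatidylcholine from phosphatidylethanolamine, rose (240.0 ± 20.8 CPM in LPD and 163 ± 16.4 CPM in SPD livers, 0.56 ± 0.075), with the choline kinases *Chka* (0.57 ± 0.12) and *Chkb* (0.18 ± 0.057, chosen after its value was seen). *Pcyt2* (-0.38 ± 0.059) and *Etnk1* (-0.21 ± 0.055), of the phosphatidylethanolamine route, fell. Without LPD replicates 2 and 5, 4 genes of that branch were called lower. In the branch from phosphatidate to cardiolipin and phosphatidylinositol, *Cds2* (-0.59 ± 0.052), *Pgs1* (-0.48 ± 0.079) and *Ptpmt1* (-0.39 ± 0.087, chosen after its value was seen) fell, the cardiolipin synthase *Crls1* rose (0.48 ± 0.073), and 3 of 7 did not pass.

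Of 6 tested diacylglycerol kinases, which return diacylglycerol to phosphatidate, *Dgkz* fell (-0.37 ± 0.076) and 5 did not pass; 2 were called lower without any 1 of LPD replicates 3, 4 and 6. Of 4 lipid phosphate phosphatases, *Plpp5* (0.62 ± 0.075) and *Plpp3* (0.17 ± 0.064) rose and *Plpp2* (-0.47 ± 0.11) fell, and 1 did not pass. The count of 2 higher was 1 without LPD replicates 1, 2, 4, 5 or 6 or SPD replicates 3, 4 or 6, each left out alone. For the lipins, *Ctdnep1*, the catalytic subunit of the phosphatase that dephosphorylates them, rose (25.9 ± 2.19 CPM in LPD and 22.6 ± 1.08 CPM in SPD livers, 0.20 ± 0.062, adjusted p = 0.0171), its partner *Cnep1r1* did not pass (-0.15 ± 0.084, adjusted p = 0.176), and the glucocorticoid receptor gene *Nr3c1* rose (0.26 ± 0.058, adjusted p = 0.00241). *Ppargc1a*, a coactivator with which lipin 1 acts, did not pass (13.9 ± 3.92 CPM in LPD and 12.3 ± 1.52 CPM in SPD livers, 0.18 ± 0.15, adjusted p = 0.358). Without LPD replicates 2 and 5, 1 of these genes was called higher in place of 2.

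Of 14 genes listed for triglyceride lipolysis, which include lipases and proteins that activate or inhibit them, 7 rose, 5 fell and 2 did not pass. *G0s2*, which encodes an inhibitor of adipose triglyceride lipase, rose (178 ± 45.8 CPM in LPD and 86.8 ± 8.59 CPM in SPD livers, 1.03 ± 0.14), as did hepatic lipase *Lipc* (0.73 ± 0.089). *Pnpla3* (0.465 ± 0.200 CPM in LPD and 4.76 ± 1.57 CPM in SPD livers, -3.34 ± 0.32) and *Abhd5*, the lipase coactivator (-0.60 ± 0.064), fell. *Lipe*, *Lipa* and *Lpl* fell too (-0.64, -0.40 and -0.79). *Ces1g*, *Ces1d*, *Ces1e*, *Mgll* and *Aadac* rose (0.68, 0.52, 0.33, 0.31 and 0.21). The genes in these last sentences were named after their values were seen. The median log2 fold change of the list was 0.105. Of 12 tested lipid droplet genes 3 rose, 3 fell and 6 did not pass. *Plin5* (0.97 ± 0.10), *Fitm2* (0.24 ± 0.062) and *Cideb* (0.17 ± 0.058) rose, and *Plin3* (-0.55 ± 0.071), *Cidea* (-1.30 ± 0.20) and *Plin2* (-0.66 ± 0.11) fell, *Cideb* and *Plin2* chosen after their values were seen. In VLDL assembly, *P4hb* (0.32 ± 0.066) and *Pdia3* (0.45 ± 0.096) rose, *Apoc3* (-0.53 ± 0.095) and *Mttp* (-0.27 ± 0.070) fell, and 4 of 8 did not pass.

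Among 12 regulators of lipid synthesis, 4 rose, 3 fell and 5 did not pass. *Insig1*, which retains the SREBP escort protein, fell (116 ± 19.8 CPM in LPD and 354 ± 47.9 CPM in SPD livers, -1.61 ± 0.11, adjusted p = 1.20e-07), with *Scap*, the escort protein itself (-0.43 ± 0.071), and the protease gene *Mbtps2* (-0.37 ± 0.094, chosen after its value was seen). *Usf2* (0.22 ± 0.052), *Nr1h3* (0.21 ± 0.057), *Mlxipl* (0.23 ± 0.084) and *Mbtps1* (0.13 ± 0.047, chosen after its value was seen) rose by small amounts, and 2 regulators in place of 4 were called higher when LPD replicate 2, 4 or 5 or SPD replicate 3, 4 or 6 was left out. *Srebf1* (149.8 ± 8.74 CPM in LPD and 158 ± 37.8 CPM in SPD livers, -0.074 ± 0.11, adjusted p = 0.646) and *Pparg* (27.4 ± 2.33 CPM in LPD and 29.1 ± 1.69 CPM in SPD livers, -0.089 ± 0.063, adjusted p = 0.278) did not pass.

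**Figure D5:**
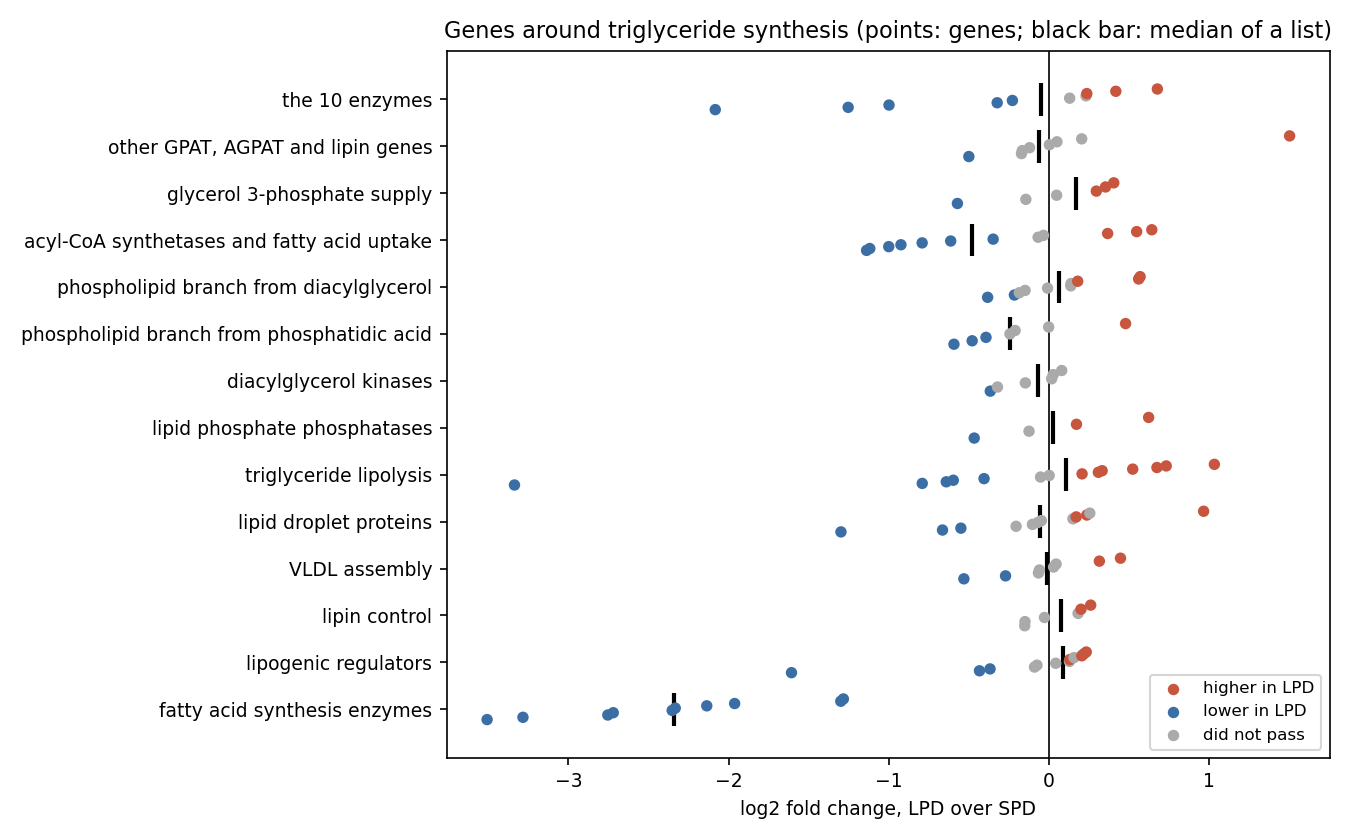
Log2 fold change (LPD over SPD) of every tested gene in the 10 enzymes and 13 surrounding lists; points are genes, red called higher, blue called lower, grey not past the test, and black bars are list medians. Fatty acid synthesis lies wholly below 0 with a median of -2.34, while the enzymes of triglyceride assembly lie on both sides of 0.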

How the data were processed

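Per the submitters' processing notes, the authors used TopHat, DESeq2 and the mm10 build, with no version or role given. The deposited table holds unscaled expected counts (estimated counts) per gene; between 17.1% and 18.9% of each library's values above 0 had a fraction. Counting program, annotation release and strand setting: not given in the sources used here. Libraries were made with a TruSeq RNA kit, per the labels' protocols, and antisense reads may be included. The deposited gene length column was used for levels per kilobase.

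After rounding to whole numbers, edgeR 4.0.16 (R 4.3.3) was run with filterByExpr (minimum count 10, total 15), TMM scaling, a quasi-likelihood F test of LPD against SPD with no further term, and Benjamini-Hochberg adjustment over 13768 genes. Standard errors are the absolute log2 fold change over the square root of F, and intervals are 95%. CPM used TMM-scaled totals. Intervals give the uncertainty of the log2 fold change between the diets, estimated from the spread between livers, and not the range of single livers. Fits were tested on simulated data. Isoenzyme ratios (CPM + 0.5) were compared by exact permutation of 924 labelings with SciPy 1.17.1.

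Replicates are separate mice, 6 per diet per the labels' protocols. Alternatives were other scalings and filters, DESeq2 1.42.0, limma-voom (limma 3.58.1), a replicate block, each library left out, LPD replicate 1 counted as SPD, codes SP1 and LP4 alone, and LPD replicates 2 and 5 left out. The rule for naming genes took all 10 enzymes, up to 2 called genes per direction and list by adjusted p, the 2 nearest profiles of strongly changed enzymes, and *Srebf1*, *Mlxipl*, *Pparg*, *Ppargc1a* and *Lep*. The enzymes, lists and alternatives were chosen with earlier results of these data known. Coordinates are from GENCODE M21 (GRCm38, the assembly of mm10), matched by gene ID. Promoters are from RefSeq (GRCm38.p6), in a table that is not complete; 6 of 10 enzymes matched, and promoters of *Gpat4*, *Dgat1*, *Dgat2* and *Mogat2* were not analysed here.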

Additional observations from a re-analysis of the deposited data

Results flagged for a closer look

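Among the levels and ratios of the enzymes, 30 sets of 6 livers were examined for a liver far from the others, of which about 1.5 would be picked out by chance, and 2 were. *Gpat4* in SPD replicate 3 (260.4 CPM) lay above the other SPD livers by 0.658 of the whole range. *Agpat2* in SPD replicate 6 (131.6 CPM) lay below the other SPD livers by 0.785 of the range. Chance picks out about 1 in 20 groups.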

How the results depend on the processing

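Over 22 alternatives, 217 of 220 fold changes of the enzymes kept their direction and side of the threshold and none turned round. The exceptions were *Gpat4*, called higher without SPD replicate 3 (0.34), *Lpin2*, not called with only libraries coded SP1 and LP4 (-0.30), and *Dgat1*, not called with LPD replicate 1 counted as SPD (-0.14); the cause was not tested. When only libraries coded SP1 and LP4 entered, 1827 of all genes were called higher and 1693 lower, from fewer livers, against 2850 and 2646 with all livers. Leaving out 1 library gave 2555 to 2803 higher and 2391 to 2653 lower genes, 3 to 4 enzymes higher and 5 lower, and 26 to 32 and 38 to 41 listed genes higher and lower. With all livers 31 listed genes were higher and 39 lower. Without both LPD replicates 2 and 5 these counts were 23 and 43. They were 22 and 37 with only libraries coded SP1 and LP4, and 25 and 36 with LPD replicate 1 counted as SPD.

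Leaving out 1 library, the log2 ratio differences were -1.67 to -1.33 for *Gpam* over *Gpat4*, -0.149 to -0.0819 for *Agpat2* over *Agpat3* (-0.149 passed without LPD replicate 6), 0.86 to 1.06 for *Lpin1* over *Lpin2*, 0.61 to 0.68 for *Dgat2* over *Dgat1* and 0.26 to 0.60 for *Mogat1* over *Mogat2*. With only libraries coded SP1 and LP4, *Gpam* over *Gpat4* did not pass (-1.19) and *Agpat2* over *Agpat3* did (-0.21). With a pseudocount of 0.1, *Mogat1* over *Mogat2* passed (0.90).

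Replicate numbers did not pair the livers: same-numbered livers had correlations of -0.0824 to 0.112 between their deviations from the diet means, 1 of 6 was above 0.1, and 1 of 6 LPD livers was closest to its own number. With the replicate block, 2668 genes were called higher and 2562 lower, and no enzyme's call changed. With a paired sign-flip test as the replicate block, the differences of -1.47 (*Gpam* over *Gpat4*), 0.98 (*Lpin1* over *Lpin2*) and 0.64 (*Dgat2* over *Dgat1*) had an adjusted p of 0.0521 over the 5 ratios, each at the smallest exact p of 0.0312 that 64 sign flips allow. Depth limits *Mogat2* most, at 7 to 18 counts per LPD library.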
